A study of Homo sapiens with 12 samples.

Results

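The genes described here are 51 genes of DNA replication and licensing, chosen by name from a list and found in the table by their gene symbol, and all 51 were present among its 58302 genes. They were grouped by the step they serve into 12 groups: origin licensing, the MCM2-7 helicase, helicase activation, polymerase alpha-primase, polymerases delta and epsilon, the clamp and clamp loader, RPA, lagging-strand maturation, chromatin and histone supply at forks, nucleotide supply, G1/S control, and fork protection with CDT1 turnover. Their mRNA was measured by RNA sequencing in 4 lines with 3 libraries each, 12 libraries in all. BxPC-3 and CFPAC-1 are cell lines from human pancreatic ductal adenocarcinoma, and the labels call the parental lines sensitive to gemcitabine (GEM) and the derived lines resistant. From them BxPC-3-GR and CFPAC-1-GR had been derived by stepwise exposure to rising concentrations of GEM, a deoxycytidine analogue that stops DNA synthesis once it is built into the new strand, with last concentrations of 1000 nmol/L and 400 nmol/L. The labels call BxPC-3-GR mesenchymal in shape and the other lines epithelial. There was 1 resistant line for each parental line. The sources used here do not say whether GEM was present when RNA was taken, nor whether the 3 libraries of a line came from separate cultures, so the p values measure only the spread between these libraries. The labels and the methods name different media for the CFPAC-1 lines.

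Replication begins when the origin recognition complex, with CDC6 and CDT1, loads the MCM2-7 helicase onto DNA in G1. CDC45 and GINS then turn the loaded ring into an active helicase at the start of S phase, and polymerase alpha-primase, the PCNA clamp with its RFC loader, polymerases delta and epsilon, and the single-strand binder RPA copy the DNA. Many of these genes are transcribed under E2F control as cells enter S phase, so their mRNA is widely used as a sign of cycling cells. In bulk RNA, fewer cells in S phase and less mRNA per cell cannot be told apart.

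Values are FPKM as the authors deposited them, that is, fragments scaled by gene length and library size. Resistant and parental libraries of a line were compared by limma on log2(FPKM + 1), for genes whose mean reached 1 FPKM, so a log2FC is a difference on that scale and understates the change of low genes. A gene was called at a Benjamini-Hochberg adjusted p below 0.05 over all genes tested, and was SDE if the absolute log2FC was also above 1. With 3 libraries against 3, an exact permutation test of 1 gene cannot give p below 0.10. The depth implied by the steps between low values lay between 12600000 and 25200000 fragments a library. Summed FPKM of the epithelial markers EPCAM, KRT7, KRT8, KRT18, KRT19 and CDH1 lay between 838 and 2914, and PTPRC, which marks leukocytes, was listed at 0 in every library. The fibroblast, endothelial and leukocyte marker sums lay between 0.746 and 4.00, 0.392 and 0.911, and 1.08 and 45.2 FPKM, the last highest in CFPAC-1. In CFPAC-1 the leukocyte sum was made up of CD68 (29.3 to 36.9 FPKM) and LYZ (6.05 to 8.26 FPKM), with PTPRC and CD3E at 0.

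As many of the genes are E2F targets, their promoters were searched for the letters TTTCGCGC and TTTGGCGC and, on the other strand, GCGCGAAA and GCGCCAAA, which resemble the E2F site. The RefSeq promoter table (GRCh38.p14, 250 bases before to 50 after the start) held 43 of the 51 genes. The letters occurred in 12 of these 43 promoters (27.9%), and in 322 of 27305 promoters in the table (1.18%). Without the leading pair of T, the last 6 letters occurred in 29 of 43 (67.44%) and in 6824 of 27305 (24.99%). The stretches below are those of the matched genes that lie before the start, with the letters found in capitals. They show that the same letters occur before genes of the helicase, both polymerase groups, G1/S control and CDT1 turnover.
MCM6 (chr2:135876506-135876605, minus strand): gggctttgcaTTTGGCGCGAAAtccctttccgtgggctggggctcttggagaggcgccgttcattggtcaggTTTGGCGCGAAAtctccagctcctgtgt
MCM7 (chr7:100101398-100101427, minus strand): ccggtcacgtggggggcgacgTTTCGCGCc
POLA1 (chrX:24693735-24693834, plus strand): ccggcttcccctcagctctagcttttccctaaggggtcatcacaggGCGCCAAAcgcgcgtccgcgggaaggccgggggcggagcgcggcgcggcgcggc
POLA2 (chr11:65261898-65261927, plus strand): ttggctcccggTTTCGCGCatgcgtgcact
POLE (chr12:132687343-132687372, minus strand): ctgggtgggagcGCGCCAAAtttctcccct
E2F1 (chr20:33686387-33686416, minus strand): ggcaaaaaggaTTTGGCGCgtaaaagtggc
DTL (chr1:212035718-212035747, plus strand): caatcagagagcgtgacgtcagTTTGGCGC
MCM6 held 4 matches, in which each TTTGGCGC shared 4 letters with a GCGCGAAA on the same stretch. The other 5 matched genes, with a match across or just after the start, were CDC6, MCM2, MCM3, GINS1 and POLE2. In BxPC-3-GR the letters were in 0 of the 3 SDE decreases, 9 of the 30 smaller decreases, 0 of 1 increase and 3 of the 9 genes without a call. In CFPAC-1-GR they were in 2 of 6 SDE increases, 4 of 14 smaller increases, 1 of 5 SDE decreases, 4 of 8 smaller decreases and 1 of 10 without a call. A match describes letters in this window and says nothing of binding.

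In BxPC-3-GR, most replication genes were lower than in BxPC-3. Of the 51 genes tested, 38 fell, across all 12 groups, while 31.5% of all 11710 genes tested were lower. PRIM2, the large subunit of primase, was the only one that rose, while 26.2% of all genes were higher. The median log2FC of the 51 genes was -0.35, beside -0.05 over all genes, and 48 of the 51 lay below 0. SDE decreases were seen for CCNE1, GINS3 and LIG1, 3 of 51, while 3.62% of all genes were SDE lower. By limma none was SDE higher (4.14% of all genes), and 1 was higher at an unadjusted p below 0.05. Every BxPC-3-GR library lay below every BxPC-3 library for 40 genes and above for 1, while 36.0% and 30.1% of all genes did so. Without the third BxPC-3-GR library LIG1 was no longer past the size criterion (-0.996), and CDT1 was past it without the third BxPC-3 library (-1.05) or the second BxPC-3-GR library (-1.06). Of the 38 decreases, 33 were still called, as was the increase of PRIM2 (27.3% and 25.2% of all genes were called lower and higher throughout), under median-of-ratios scaling (28.1% of all genes lower, 28.9% higher), upper-quartile scaling (31.1% and 26.6%) and the correction for GC content and length described next (30.9% and 28.0%). With that correction 4 genes were SDE lower (3.45% of all genes), CDT1 being the added one. The 5 that lost their call in a setting were PRIM1, RPA1, DNA2, CHAF1B and SLBP.

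In CFPAC-1-GR replication genes were found in both directions, in shares near those of all genes. Of 50 genes tested, 23 rose and 14 fell against CFPAC-1, while 44.6% of all 12051 genes tested were higher and 34.9% lower. CCNE2 was below the filter. The 7 SDE increases were RFC1, POLA1, CLSPN, RFC3, DNA2, POLE2 and PRIM1, and the 6 SDE decreases were E2F1, CDT1, POLD1, POLD2, MCM5 and TK1, while 20.5% and 11.7% of all genes were SDE higher and lower. The groups did not overlap for 25 genes with every CFPAC-1-GR library above and for 15 with every one below, beside 45.7% and 36.4% of all genes. The median log2FC was 0.15, beside 0.13 over all genes. It was 0.10 without the third CFPAC-1 library and 0.23 without the first.

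The direction in CFPAC-1-GR went with the base composition of the gene. The 7 SDE increases had a transcript GC content of 37.6% to 44.8% (median 41.7%), and the 6 SDE decreases one of 57.0% to 65.0% (median 62.7%). Across the 50 genes the Spearman correlation of log2FC with GC content was -0.872, and across 12030 genes with a GC content it was -0.777; in BxPC-3-GR it was -0.0795 over the 51 genes. These correlations are across genes, which share the 6 libraries, and are a description. After subtraction of a spline in GC content and gene length from the log ratios, hereafter the correction, 16 replication genes were higher and 16 lower, beside 29.6% and 30.6% of all genes, and the median was 0.03. By limma none was then SDE in either direction (4.69% of all genes higher, 3.97% lower), and the largest absolute log2FC was 0.90, although 16 and 16 had an unadjusted p below 0.05. With and without the correction 12 genes were higher and 10 lower (21.7% and 18.8% of all genes), 7 not called as deposited were called with it (CHAF1A, MCM3 and UHRF1 higher, CHAF1B, DUT, GINS3 and RPA3 lower), and 3 were called the opposite way with it, namely GINS1, PRIM2 and FEN1. The counts also moved with the scaling: the median over all genes moved from 0.13 to -0.13 with median-of-ratios scaling and to -0.24 with upper-quartile scaling, and the replication genes were then 17 higher and 20 lower (36.1% and 44.3% of all genes), and 16 higher and 25 lower (32.9% and 47.9%). Of these, 5 and 9 were SDE under the first (14.4% and 19.1% of all genes), and 5 and 10 under the second (12.2% and 22.2%). Of summed FPKM, the top 10 genes held 12.04% to 13.8% in CFPAC-1 libraries but 23.2% to 24.6% in CFPAC-1-GR libraries, and the part of this in the result was not tested. Called alike under all 3 of these settings were 10 increases (ORC6, CDC6, MCM6, POLA1, PRIM1, POLE2, RFC1, RFC3, RFC4 and CLSPN) and 10 decreases (CDT1, MCM2, MCM5, MCM7, POLA2, POLD1, POLD2, POLE, LIG1 and E2F1), while 18.0% and 18.8% of all genes were so called.

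**Figure D1:**
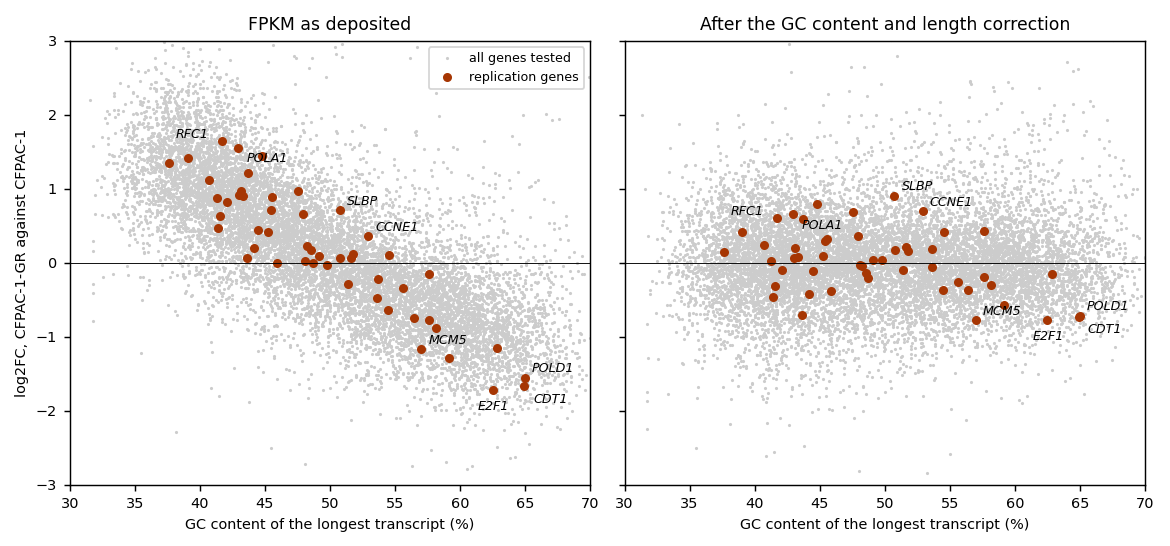
Log2FC of CFPAC-1-GR against CFPAC-1 (y axis, on log2(FPKM + 1)) against the GC content of the longest transcript (x axis, %), before (left) and after (right) the correction. Grey points are all 12030 genes, of which 77 and 75 lie outside the axes, and brown points the 50 replication genes; on the left they run from RFC1 and POLA1 at low GC content to E2F1, CDT1 and POLD1 at high GC content, and on the right they lie between -0.78 and 0.90.

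The change differed between the lines for most of the genes, as it did for most of all genes tested. The interaction term, the log2FC in CFPAC-1-GR minus that in BxPC-3-GR over all 12 libraries, was called for 35 genes with a higher value and 8 with a lower one, beside 44.9% and 31.6% of 12210 genes tested. Its absolute value passed 1 for 19 and 3 of them, beside 23.6% and 14.4% of all genes, and the median was 0.67, beside 0.22. With the correction 30 genes were higher and 6 lower (31.6% and 31.7% of all genes), the median was 0.43 beside -0.00069 over all genes, and ORC6, RFC3, FEN1, UHRF1, SLBP and CCNE1 passed 1, of which 4 did so without it (9.31% of all genes were SDE higher with it). None then passed -1 (9.10% of all genes), while 7 were lower at an unadjusted p below 0.05. Median-of-ratios scaling gave 24 higher and 13 lower (35.5% and 40.3% of all genes), 14 and 6 of them past 1 (16.5% and 21.3%). Upper-quartile scaling gave 22 and 14 (33.1% and 43.4%), 12 and 6 of them past 1 (15.3% and 23.8%). Of the 50 genes tested in both lines, 18 were lower in BxPC-3-GR and higher in CFPAC-1-GR, and 9 were lower in both, beside 15.5% and 11.3% of all genes. After the correction the counts were 12 and 10, beside 9.67% and 10.5% of all genes.

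**Figure D2:**
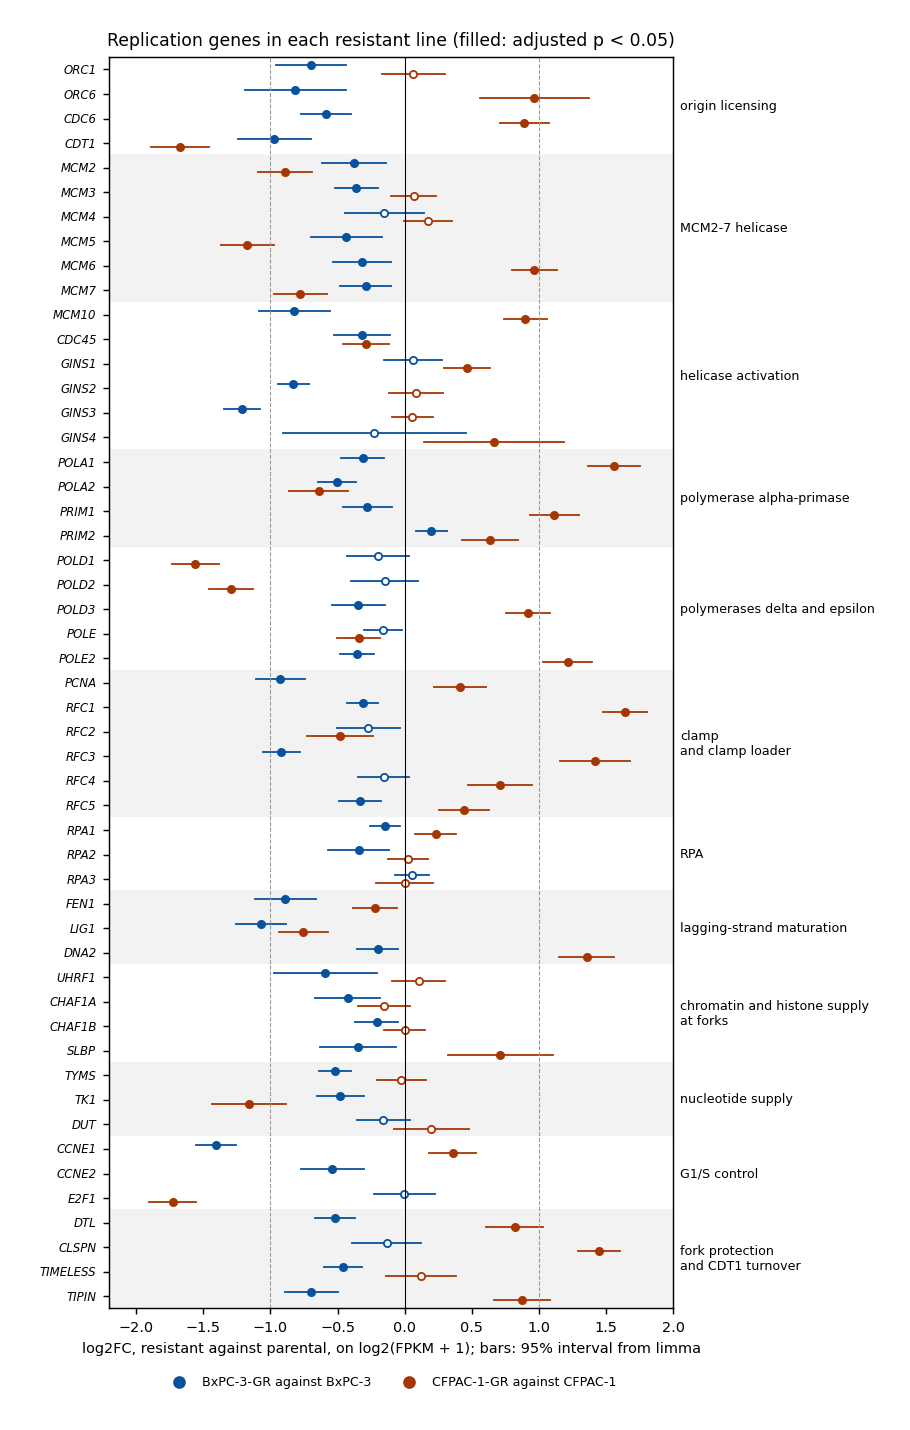
Log2FC of each replication gene (x axis, on log2(FPKM + 1)) with the 95% interval from limma, by functional group, for BxPC-3-GR against BxPC-3 (blue) and CFPAC-1-GR against CFPAC-1 (brown); filled points have an adjusted p below 0.05 and dashed lines mark an absolute log2FC of 1. The blue points lie between -1.41 and 0.20 with 48 of 51 below 0, and the brown points run from -1.73 to 1.64.

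Origin licensing fell as a whole in BxPC-3-GR and divided in CFPAC-1-GR. ORC1 and ORC6 belong to the origin recognition complex, CDC6 is the ATPase that joins it, and CDT1 escorts the MCM ring. All 4 fell in BxPC-3-GR, with log2FC from -0.97 to -0.59. CDT1 (ENSG00000167513, chr16:88803213-88809258, plus strand) stood at 26.3, 25.7 and 21.9 FPKM in BxPC-3 and at 12.1, 13.7 and 10.5 FPKM in BxPC-3-GR. Every resistant library was lower than every parental one (log2FC -0.97, SE 0.112, adjusted p = 0.000616), and with the correction the gene was SDE (-1.03). In CFPAC-1 it was at 65.0, 72.2 and 69.6 FPKM, falling to 18.6, 22.3 and 22.0 FPKM in CFPAC-1-GR. The groups lay far apart (log2FC -1.67, SE 0.0906, adjusted p = 7.96e-06), and the corrected log2FC was -0.73. The difference between the lines changed sign with the correction, from -0.70 to 0.32, both called. ORC6 fell in BxPC-3-GR (log2FC -0.81, SE 0.154, adjusted p = 0.00479) but rose in the other line (log2FC 0.97, SE 0.169, adjusted p = 0.00147), as did CDC6 (-0.59 and 0.89). ORC1 fell in BxPC-3-GR (-0.70) and had a log2FC of 0.06 in CFPAC-1-GR (95% interval -0.17 to 0.30), where upper-quartile scaling called it lower (-0.32).

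The 6 subunits of the MCM2-7 ring, which enter one complex in equal number, were not equal in mRNA and did not move together in CFPAC-1-GR. In BxPC-3-GR, 5 of 6 fell with log2FC from -0.44 to -0.29, and MCM4 had a log2FC of -0.15 (95% interval -0.45 to 0.14). Their summed FPKM was 204 ± 9.52 (SD, n = 3) in BxPC-3 and 163 ± 16.8 in BxPC-3-GR. In CFPAC-1-GR, MCM2, MCM5 and MCM7 fell, MCM6 rose, and MCM3 and MCM4 were not called as deposited. Upper-quartile scaling called MCM4 lower (-0.24). After the correction MCM2 and MCM7 were still called lower (-0.31 and -0.20). Their differences between the lines, -0.515 and -0.487 as deposited, were then not called (0.11 and 0.11). GC content was 58.1%, 57.0% and 57.6% in MCM2, MCM5 and MCM7, and 43.1% in MCM6. MCM5 (ENSG00000100297, chr22:35400063-35425430, plus strand) was at 25.8, 24.1 and 24.3 FPKM in CFPAC-1 and at 9.40, 11.3 and 10.6 FPKM in CFPAC-1-GR. All resistant libraries were lower (log2FC -1.17, SE 0.0824, adjusted p = 1.75e-05), also after the correction (-0.78, adjusted p = 0.000245). In the BxPC-3 lines MCM5 went from 23.4, 25.1 and 21.4 to 18.3, 18.3 and 14.5 FPKM. This smaller decrease was called too (log2FC -0.44, SE 0.108, adjusted p = 0.0143); the difference between the lines was -0.74, and -0.30 after the correction, where it was no longer called (adjusted p = 0.0567).

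MCM6 was the subunit of the ring called higher in CFPAC-1-GR as deposited. With the correction MCM3 was called higher too (log2FC 0.21, adjusted p = 0.0167), while under both scalings it was called lower (-0.23 and -0.36). MCM6 (ENSG00000076003, chr2:135839626-135876426, minus strand) was at 23.0, 23.0 and 21.5 FPKM in CFPAC-1 and at 42.9, 47.3 and 44.5 FPKM in CFPAC-1-GR. Every resistant library lay above the parental ones (log2FC 0.96, SE 0.0694, adjusted p = 1.92e-05), and the corrected log2FC was 0.20 (adjusted p = 0.0375). It was at 33.3, 31.8 and 29.6 FPKM in BxPC-3 and at 26.8, 26.5 and 22.3 FPKM in BxPC-3-GR. This decrease (log2FC -0.32, SE 0.0875, adjusted p = 0.0213) was not called without the first or the second BxPC-3 library (adjusted p = 0.0648 and 0.0594). The lines differed by 1.28 (adjusted p = 1.18e-06), and by 0.51 after the correction. The subunit with the highest mean was MCM7 in both BxPC-3 lines, MCM2 in parental CFPAC-1 and MCM6 in CFPAC-1-GR. The highest mean was 2.09 and 2.34 times the lowest in the BxPC-3 lines, and 4.07 and 4.30 times in the CFPAC-1 lines.

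Helicase activation was led by GINS3 in BxPC-3-GR. MCM10, which helps to start the helicase, fell in BxPC-3-GR (log2FC -0.82, SE 0.110, adjusted p = 0.00112) but rose in the CFPAC-1 pair (log2FC 0.90, SE 0.0669, adjusted p = 2.21e-05), where the corrected value was 0.08 and not called. CDC45, a core helicase subunit, fell in both (-0.32 and -0.29), and after the correction only the first was called (-0.10 in CFPAC-1-GR). GINS3 (ENSG00000181938, chr16:58295080-58406144, plus strand), a subunit of the GINS ring, was at 4.67, 4.46 and 4.31 FPKM in BxPC-3 and at 1.48, 1.35 and 1.28 FPKM in BxPC-3-GR. The resistant libraries were far below the parental ones, with a ratio of means of 0.306, and the decrease was SDE (log2FC -1.21, SE 0.0555, adjusted p = 2.04e-05). In CFPAC-1 it was at 2.77, 3.06 and 3.02 FPKM and in CFPAC-1-GR at 3.08, 3.14 and 3.09 FPKM. The resistant libraries lay just above the parental ones without a call (log2FC 0.06, SE 0.0631, adjusted p = 0.430), but with the other scalings (-0.17 and -0.27) and with the correction (-0.71) the gene was called lower. The difference between the lines was 1.27 (adjusted p = 7.72e-08). GINS2 also fell in BxPC-3-GR (log2FC -0.83, SE 0.0470, adjusted p = 4.20e-05), while GINS1 and GINS4 did not pass the test (0.06 and -0.23). In CFPAC-1-GR GINS1 was higher as deposited (0.46) and lower after the correction (-0.47), and both were called. GINS4 was called higher there as deposited (0.66, adjusted p = 0.0259), but not under either scaling (0.44 and 0.34) or after the correction (0.36). GINS2 was not called there as deposited (0.08), and was called lower under upper-quartile scaling (-0.32). Summed over the 4 subunits, FPKM as deposited was 46.1 ± 0.892 in BxPC-3, 37.2 ± 3.03 in BxPC-3-GR, 24.7 ± 1.96 in CFPAC-1 and 30.7 ± 0.850 in CFPAC-1-GR.

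Polymerase alpha-primase lays down the RNA-DNA primer that starts each strand. Its catalytic subunits moved in opposite directions in the pair of resistant lines. POLA1 (ENSG00000101868, chrX:24693919-24996986, plus strand), the catalytic subunit of polymerase alpha, was at 2.98, 3.40 and 3.01 FPKM in CFPAC-1 and at 11.8, 10.2 and 11.4 FPKM in CFPAC-1-GR. Resistant libraries were all above the parental ones (log2FC 1.56, SE 0.0806, adjusted p = 7.34e-06), and after the correction the increase was smaller and still called (0.65, adjusted p = 0.000287). In BxPC-3 it was at 8.58, 8.85 and 8.201 FPKM, and in BxPC-3-GR at 6.77, 7.15 and 6.16 FPKM. The groups did not overlap there either, in the lower direction (log2FC -0.31, SE 0.0656, adjusted p = 0.00740), and the lines differed by 1.87 (adjusted p = 4.27e-08). PRIM1 (ENSG00000198056, chr12:56731596-56752373, minus strand), the small catalytic subunit of primase, was at 5.14, 4.56 and 4.61 FPKM in CFPAC-1 and at 10.7, 11.8 and 11.9 FPKM in CFPAC-1-GR. The increase was SDE (log2FC 1.11, SE 0.0759, adjusted p = 1.58e-05), with a corrected log2FC of 0.24.

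In the BxPC-3 lines PRIM1 was at 9.65, 9.86 and 8.22 FPKM and then at 7.34, 7.62 and 7.33 FPKM. This decrease (log2FC -0.28, SE 0.0747, adjusted p = 0.0195) was not called after the correction (adjusted p = 0.0824), nor without the first or second BxPC-3 library (0.0599 and 0.0617) or the first or the third BxPC-3-GR library (0.0579 and 0.0556, all as adjusted p). POLA2, the accessory subunit of polymerase alpha, fell in both lines (log2FC -0.50, SE 0.0584, adjusted p = 0.000627 in BxPC-3-GR, with -0.64 for the CFPAC-1 pair). PRIM2 (ENSG00000146143, chr6:57314805-57646849, plus strand), the large primase subunit, was at 5.77, 6.02 and 5.78 FPKM in BxPC-3 and at 7.02, 6.66 and 6.92 FPKM in BxPC-3-GR. Every resistant library was higher (log2FC 0.20, SE 0.0476, adjusted p = 0.0124). In CFPAC-1-GR its log2FC was 0.64 as deposited and -0.32 after the correction, and the call turned from higher to lower. Exons of PRIM1, POLA2, POLD1 and POLD3 overlap other genes on the same strand in the annotation. Those of PRIM1 also overlap 1 on the opposite strand, so fragments of these genes may be shared.

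Polymerases delta and epsilon copy the lagging and leading strands, and in CFPAC-1-GR their subunits divided. POLD1 (ENSG00000062822, chr19:50384204-50418018, plus strand), the catalytic subunit of polymerase delta, was at 28.6, 32.7 and 29.9 FPKM in CFPAC-1 and at 9.94, 9.59 and 9.46 FPKM in CFPAC-1-GR. The 3 resistant libraries lay far below the parental ones, with a ratio of means of 0.318 (log2FC -1.56, SE 0.0732, adjusted p = 6.29e-06), and the corrected log2FC was -0.72. Between BxPC-3 at 14.4, 15.5 and 14.7 FPKM and BxPC-3-GR at 12.7, 14.7 and 11.3 FPKM the groups overlapped. This was not called (log2FC -0.20, SE 0.0958, adjusted p = 0.119), but was with the correction (-0.31, adjusted p = 0.0183) and without the second BxPC-3-GR library (-0.29, adjusted p = 0.0251). POLD2 (ENSG00000106628, chr7:44114681-44124358, minus strand), its accessory subunit, was at 25.2, 24.2 and 27.1 FPKM in CFPAC-1 and at 10.0, 9.73 and 9.70 FPKM in CFPAC-1-GR. It showed the same separation (log2FC -1.29, SE 0.0685, adjusted p = 7.64e-06), with -0.57 after the correction. Its BxPC-3 libraries held 11.97, 14.0 and 10.9 FPKM and its BxPC-3-GR libraries 10.3, 12.003 and 10.6 FPKM, which overlapped (log2FC -0.15, SE 0.102, adjusted p = 0.255).

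POLD3 and POLE2 went the other way in CFPAC-1-GR. POLD3 (ENSG00000077514, chr11:74493851-74669117, plus strand), another accessory subunit of polymerase delta, was at 2.77, 2.54 and 2.68 FPKM in CFPAC-1 and at 6.09, 5.53 and 6.13 FPKM in CFPAC-1-GR. It rose as deposited (log2FC 0.92, SE 0.0685, adjusted p = 2.24e-05), and was not called after the correction (0.06, adjusted p = 0.428). In BxPC-3 it was at 6.22, 5.74 and 5.67 FPKM and in BxPC-3-GR at 4.72, 4.69 and 3.85 FPKM. This was a decrease without overlap (log2FC -0.35, SE 0.0814, adjusted p = 0.0115). POLE2 (ENSG00000100479, chr14:49643555-49688422, minus strand), the second subunit of polymerase epsilon, was at 1.74, 2.17 and 2.08 FPKM in CFPAC-1 and at 6.01, 5.99 and 5.83 FPKM in CFPAC-1-GR. The increase was SDE (log2FC 1.21, SE 0.0765, adjusted p = 1.19e-05) and still called after the correction (0.60). It fell in BxPC-3-GR, from 5.71, 6.26 and 6.13 to 4.43, 4.57 and 4.48 FPKM. The groups were again separate (log2FC -0.36, SE 0.0518, adjusted p = 0.00163), and the lines differed by 1.57, or 0.92 after the correction. POLE, the catalytic subunit of polymerase epsilon, fell in CFPAC-1-GR (log2FC -0.34, SE 0.0664, adjusted p = 0.00242) and had a log2FC of -0.16 in BxPC-3-GR (adjusted p = 0.0566). With the correction POLE was called lower in BxPC-3-GR too (-0.29, adjusted p = 0.00447). Per length, the highest mean of these 5 subunits was 15.2 times the lowest in CFPAC-1 (POLD1 over POLE2) and 1.66 times in CFPAC-1-GR (POLD2 over POLD3), beside 2.53 in BxPC-3 and 2.91 in BxPC-3-GR. These are ratios of FPKM as deposited, without the correction. GC content was 65.0% in POLD1 and 59.1% in POLD2, but 43.7% in POLE2 and 43.0% in POLD3.

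**Figure D3:**
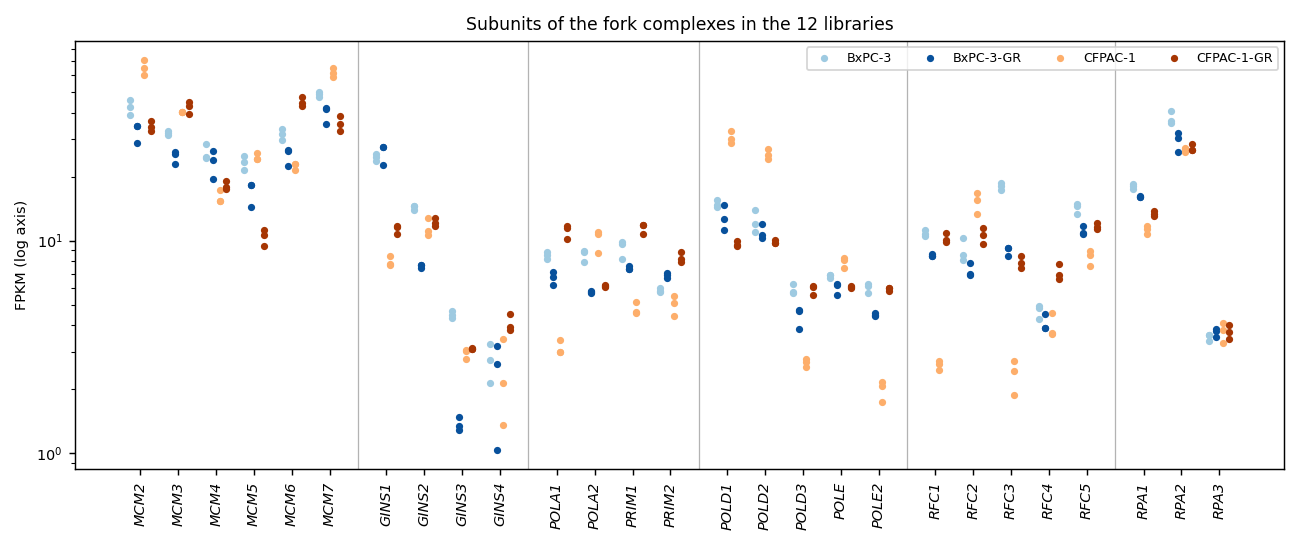
FPKM (y axis, log scale) of each subunit of the MCM, GINS, polymerase alpha-primase, polymerase delta and epsilon, RFC and RPA complexes in the 12 libraries, 1 point a library, by line. In CFPAC-1 the subunits of the polymerases and of RFC spread wider than in the other lines, from 1.74 FPKM for POLE2 to 32.7 FPKM for POLD1 among the delta and epsilon subunits, and in CFPAC-1-GR those 5 lie between 5.53 and 10.0 FPKM. The values are as deposited, without the correction for GC content and length.

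PCNA was the most abundant of the 51 genes in every line, per length, and fell most in absolute level in BxPC-3-GR. PCNA (ENSG00000132646, chr20:5114953-5126626, minus strand), the ring that holds polymerases on DNA, was at 271, 287 and 252 FPKM in BxPC-3 and at 145, 149 and 131 FPKM in BxPC-3-GR. The resistant libraries were well below the parental ones (log2FC -0.92, SE 0.0763, adjusted p = 0.000161). In CFPAC-1 it was at 97.3, 106 and 105 FPKM and in CFPAC-1-GR at 128, 136 and 148 FPKM. This was an increase as deposited (log2FC 0.41, SE 0.0799, adjusted p = 0.00248), and was not called after the correction (0.09), under median-of-ratios scaling (0.11) or under upper-quartile scaling, where the sign turned (-0.019), while the difference between the lines was 1.34, or 0.97 after it.

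The RFC clamp loader opens PCNA and places it on primed DNA. RFC1 (ENSG00000035928, chr4:39287456-39366375, minus strand), the large subunit, was at 2.46, 2.64 and 2.71 FPKM in CFPAC-1 and at 10.9, 9.82 and 10.1 FPKM in CFPAC-1-GR. This was the largest increase of the 50 genes tested there (log2FC 1.64, SE 0.0693, adjusted p = 6.25e-06), with 0.60 after the correction. In BxPC-3 it was at 10.5, 10.8 and 11.2 FPKM and in BxPC-3-GR at 8.47, 8.49 and 8.64 FPKM. The decrease was small but wider than the spread of the libraries (log2FC -0.31, SE 0.0474, adjusted p = 0.00193). RFC3 (ENSG00000133119, chr13:33818049-33966558, plus strand), a small subunit, was at 18.6, 17.2 and 18.01 FPKM in BxPC-3 and at 9.27, 9.26 and 8.52 FPKM in BxPC-3-GR. The resistant libraries were well below the parental ones, with a ratio of means of 0.502 (log2FC -0.92, SE 0.0571, adjusted p = 6.02e-05). In CFPAC-1 RFC3 was at 2.45, 2.73 and 1.89 FPKM and in CFPAC-1-GR at 8.47, 7.83 and 7.45 FPKM. Here it rose (log2FC 1.42, SE 0.109, adjusted p = 2.50e-05; corrected 0.41), and its difference between the lines, 2.34 (adjusted p = 4.05e-08) and 1.27 after the correction, was the largest of the 51 genes without it. RFC5 fell in BxPC-3-GR (-0.33), while RFC2 and RFC4 were not called (-0.27 and -0.16). RFC4 rose in CFPAC-1-GR (0.71, corrected 0.29), RFC5 rose as deposited (0.44) and was not called under either scaling or after the correction (-0.11). RFC2 fell as deposited (-0.48) and under both scalings (-0.76 and -0.88), and was not called after the correction (-0.05).

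RPA, which coats single-stranded DNA, had small log2FC in both lines, between -0.34 and 0.23. RPA2 (ENSG00000117748, chr1:27891524-27914746, minus strand), the middle subunit, was at 40.5, 35.6 and 36.3 FPKM in BxPC-3 and at 31.96, 30.3 and 26.0 FPKM in BxPC-3-GR. The groups did not overlap (log2FC -0.34, SE 0.0935, adjusted p = 0.0205), but the call was lost without the first BxPC-3 library (adjusted p = 0.0600). In CFPAC-1 it was at 27.4, 26.8 and 26.2 FPKM and in CFPAC-1-GR at 28.4, 26.7 and 26.7 FPKM. These overlapped (log2FC 0.03, SE 0.0632, adjusted p = 0.721), while median-of-ratios and upper-quartile scaling gave log2FC of -0.27 and -0.39, both called lower. RPA1, the large subunit, fell in BxPC-3-GR (-0.15), a call lost under median-of-ratios scaling (-0.10, adjusted p = 0.124). In CFPAC-1-GR RPA1 was higher as deposited (0.23), and was not called after the correction (-0.05) or under the scalings, where the sign turned (-0.05 and -0.17). RPA3, the small subunit, was not called in either line as deposited (0.05 and 95% interval -0.08 to 0.18 in BxPC-3-GR, 95% interval -0.21 to 0.21 in CFPAC-1-GR), was called lower in CFPAC-1-GR with the correction (-0.39) and upper-quartile scaling (-0.34), and was the lowest of the 3 in FPKM in all 4 lines.

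Lagging-strand maturation held 1 of the 3 SDE decreases of BxPC-3-GR. LIG1 (ENSG00000105486, chr19:48115445-48170603, minus strand), the ligase that seals Okazaki fragments, was at 9.80, 9.68 and 9.53 FPKM in BxPC-3 and at 4.28, 4.42 and 3.56 FPKM in BxPC-3-GR. The resistant libraries were all below the parental ones (log2FC -1.07, SE 0.0764, adjusted p = 9.56e-05). LIG1 was at 12.2, 12.6 and 11.7 FPKM in CFPAC-1 and at 6.82, 7.37 and 6.25 FPKM in CFPAC-1-GR. It fell there too (log2FC -0.75, SE 0.0772, adjusted p = 9.45e-05; corrected -0.37). FEN1, the flap endonuclease, fell in BxPC-3-GR (log2FC -0.89, SE 0.0933, adjusted p = 0.000421), and in CFPAC-1-GR it was lower as deposited (-0.22) and higher after the correction (0.19), both called. DNA2 (ENSG00000138346, chr10:68414064-68472121, minus strand), a nuclease and helicase that trims long flaps, was at 0.868, 0.719 and 0.826 FPKM in CFPAC-1 and at 3.83, 3.15 and 3.88 FPKM in CFPAC-1-GR. Every resistant library was higher (log2FC 1.35, SE 0.0867, adjusted p = 1.26e-05), and after the correction it was not called (0.15, adjusted p = 0.125). It was at 1.98, 2.10 and 2.29 FPKM in BxPC-3 and at 1.69, 1.84 and 1.60 FPKM in BxPC-3-GR. This decrease (log2FC -0.20, SE 0.0624, adjusted p = 0.0319) was not called after the correction (-0.15) or median-of-ratios scaling, nor without the second or the third BxPC-3 library (adjusted p = 0.0739 and 0.0781) or the first or the third BxPC-3-GR library (0.0850 and 0.0872).

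Among the genes that serve chromatin and histones at forks, all 4 fell in BxPC-3-GR. UHRF1, which carries DNA methylation to the new strand, had a log2FC of -0.59 there, and CHAF1A and CHAF1B, subunits of the histone chaperone CAF-1, had -0.42 and -0.21. The call of CHAF1B was lost under median-of-ratios scaling (-0.16, adjusted p = 0.0782). SLBP (ENSG00000163950, chr4:1692800-1712555, minus strand), which binds the stem-loop of histone mRNA, was at 17.9, 16.95 and 13.3 FPKM in BxPC-3 and at 12.5, 13.0 and 11.5 FPKM in BxPC-3-GR. The third BxPC-3 library came close to the resistant ones, and without it the log2FC was -0.47, beside the main value (log2FC -0.35, SE 0.116, adjusted p = 0.0417). The call was lost when any 1 of the other 5 libraries was left out, and under median-of-ratios scaling, the correction, no filter or a fit of 12 libraries. Without the first and the second BxPC-3 library in turn the adjusted p was 0.111 and 0.116, and without each BxPC-3-GR library 0.0869, 0.0657 and 0.118. SLBP was at 9.87, 10.2 and 9.07 FPKM in CFPAC-1 and at 12.4, 19.4 and 18.6 FPKM in CFPAC-1-GR. The first resistant library was nearest to the parental ones, and the gene rose (log2FC 0.71, SE 0.163, adjusted p = 0.00556), with 0.90 after the correction and no call under upper-quartile scaling (0.31, adjusted p = 0.128). UHRF1, CHAF1A and CHAF1B were not called in CFPAC-1-GR as deposited (0.10, -0.16 and 0.00), and after the correction were called higher, higher and lower (0.41, 0.43 and -0.21). Under median-of-ratios and upper-quartile scaling CHAF1A (-0.43 and -0.55) and CHAF1B (-0.28 and -0.39) were called lower there. UHRF1 was called lower under upper-quartile scaling alone (-0.28), so the direction of UHRF1 and CHAF1A turned with the setting.

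In nucleotide supply, TYMS and TK1 fell in BxPC-3-GR. TYMS, thymidylate synthase, fell there (log2FC -0.52, SE 0.0498, adjusted p = 0.000293), although its exons overlap ENOSF1 on the opposite strand, and was not called in CFPAC-1-GR as deposited (-0.03, 95% interval -0.21 to 0.16). Under median-of-ratios and upper-quartile scaling TYMS was called lower in CFPAC-1-GR (-0.31 and -0.43). TK1 (ENSG00000167900, chr17:78174075-78187233, minus strand), the S phase thymidine kinase of the salvage route, was at 27.4, 30.3 and 26.7 FPKM in BxPC-3 and at 19.8, 21.2 and 18.8 FPKM in BxPC-3-GR. The libraries of the lines were separate (log2FC -0.48, SE 0.0725, adjusted p = 0.00191). TK1 was at 80.5, 64.6 and 66.7 FPKM in CFPAC-1 and at 27.8, 34.0 and 31.3 FPKM in CFPAC-1-GR. The resistant libraries were all lower (log2FC -1.16, SE 0.114, adjusted p = 7.76e-05), and after the correction the gene was not called (-0.15, adjusted p = 0.212). Its difference between the lines was -0.68 as deposited and 0.37 after the correction, both called. DUT, which removes dUTP, was not called in either line (-0.16 and 0.20), and was lower in CFPAC-1-GR after the correction (-0.42).

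In G1/S control, CCNE1 and E2F1 marked the contrast between the lines. CCNE1 (ENSG00000105173, chr19:29811898-29824308, plus strand), cyclin E1, which drives CDK2 at S phase entry, was at 7.05, 6.59 and 6.56 FPKM in BxPC-3 and at 2.11, 1.85 and 1.80 FPKM in BxPC-3-GR. It was the largest decrease of the 51 genes in that line (log2FC -1.41, SE 0.0618, adjusted p = 1.75e-05), with a ratio of means of 0.285. In CFPAC-1 it was at 3.71, 4.15 and 3.66 FPKM and in CFPAC-1-GR at 5.38, 5.34 and 4.86 FPKM. All resistant libraries were above the parental ones (log2FC 0.36, SE 0.0739, adjusted p = 0.00340), and the corrected log2FC was larger (0.70), while with median-of-ratios (0.11) and upper-quartile scaling (0.00262) it was not called. The lines differed by 1.76 (adjusted p = 3.28e-08) and by 2.04 after the correction. CCNE2, cyclin E2, fell in BxPC-3-GR (-0.54), and its FPKM was 0.297, 0.309 and 0.291 in CFPAC-1 and 2.07, 1.23 and 1.503 in CFPAC-1-GR, with a mean below the filter.

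E2F1 (ENSG00000101412, chr20:33675683-33686404, minus strand), the transcription factor that opens the S phase program, was at 97.1, 94.6 and 89.6 FPKM in CFPAC-1 and at 26.1, 29.3 and 27.5 FPKM in CFPAC-1-GR. This was the largest decrease of the 50 genes tested in that line (log2FC -1.73, SE 0.0724, adjusted p = 6.25e-06), with -0.78 after the correction (adjusted p = 0.000108). In BxPC-3 it was at 15.0, 14.9 and 14.6 FPKM and in BxPC-3-GR at 15.6, 16.2 and 12.7 FPKM. The groups overlapped there, and the 95% interval of the log2FC ran from -0.23 to 0.22. The difference between the lines was -1.73 (adjusted p = 1.97e-07), and -0.74 after the correction. CFPAC-1-GR remained above both BxPC-3 lines in E2F1 level, in FPKM as deposited. This comparison across lines was not tested and not corrected for GC content.

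DTL, CLSPN, TIMELESS and TIPIN protect forks or remove CDT1 during S phase. CLSPN (ENSG00000092853, chr1:35720218-35769967, minus strand), claspin, the adaptor that passes the ATR signal to CHK1, was at 3.81, 3.86 and 3.83 FPKM in CFPAC-1 and at 12.8, 11.5 and 12.3 FPKM in CFPAC-1-GR. It rose in all resistant libraries (log2FC 1.45, SE 0.0655, adjusted p = 6.28e-06), also after the correction (0.80, adjusted p = 0.000115). In BxPC-3 it was at 11.9, 11.2 and 10.6 FPKM and in BxPC-3-GR at 11.2, 10.9 and 8.50 FPKM. Here the groups overlapped and the gene was not called (log2FC -0.14, SE 0.107, adjusted p = 0.316). DTL, which targets CDT1 for destruction, fell in BxPC-3-GR (log2FC -0.52, SE 0.0613, adjusted p = 0.000685), and rose in CFPAC-1-GR as deposited (0.82) but not after the correction (-0.10). TIPIN did the same (-0.70, then 0.87 and 0.03), and its partner TIMELESS fell in BxPC-3-GR (-0.46) and was not called in CFPAC-1-GR (0.12). A processed pseudogene, RPL9P25, overlaps the exons of TIPIN on the same strand.

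**Figure D4:**
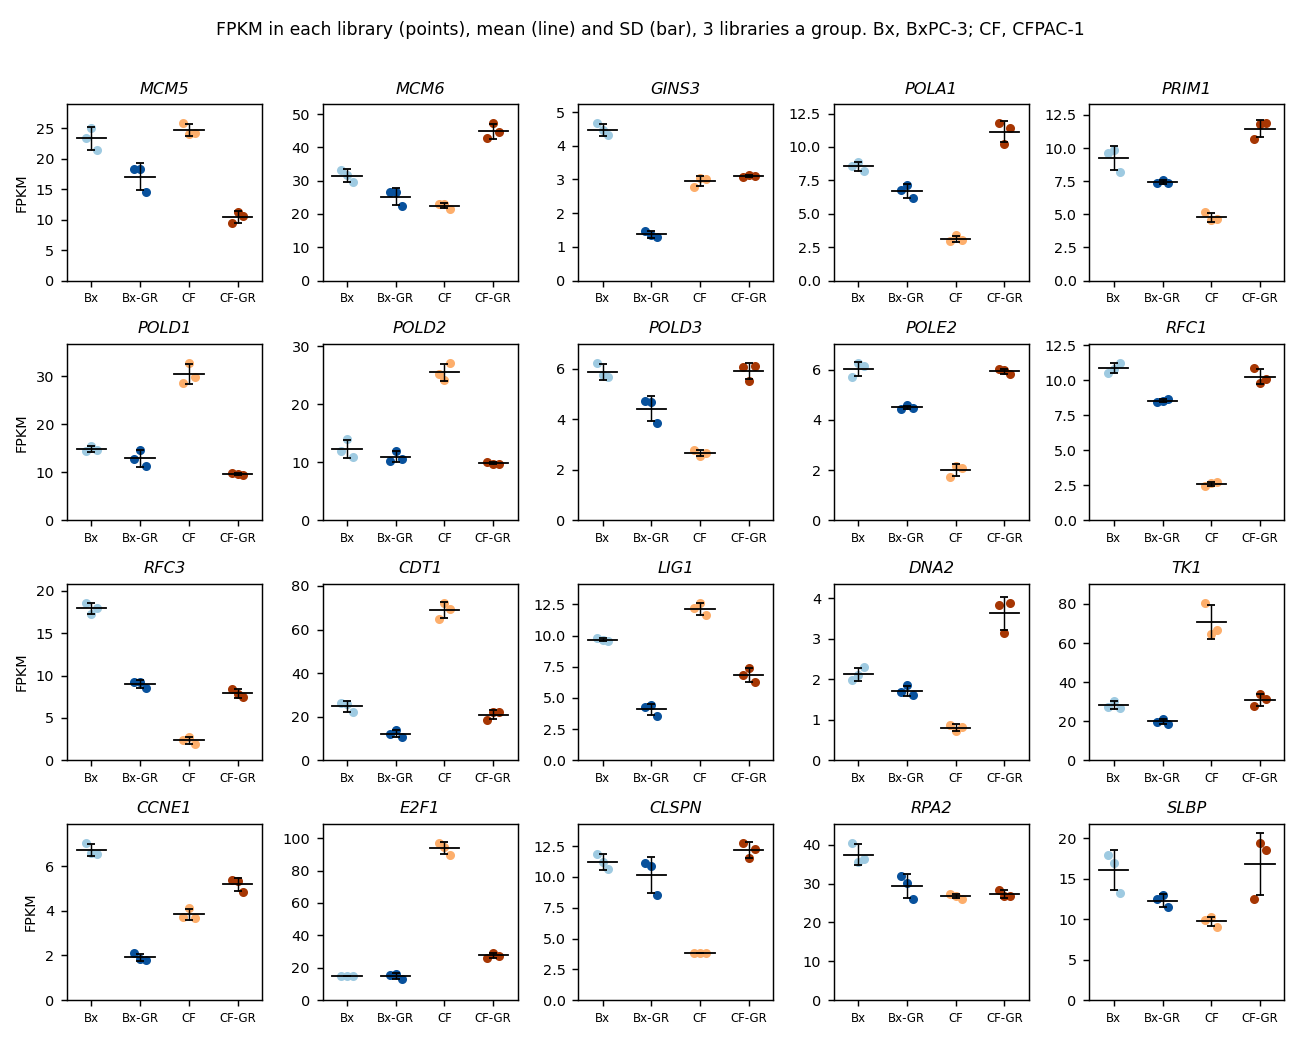
FPKM (y axis, from 0) of 20 replication genes in each library (points), with the mean (line) and SD (bar) of 3 libraries a group, in BxPC-3 (Bx), BxPC-3-GR (Bx-GR), CFPAC-1 (CF) and CFPAC-1-GR (CF-GR). The blue groups step down in GINS3, RFC3, LIG1 and CCNE1, while the CFPAC-1 groups, in orange and brown, step up in POLA1, RFC1 and CLSPN and down in POLD1, CDT1 and E2F1.

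A further 56 genes of replication and G1/S control, which are not among the 51, were read in the same fits. In BxPC-3-GR 30 of the 55 tested fell and 6 rose, with a median of -0.23, beside 31.5% and 26.2% of all genes and their median of -0.05. CDC25A, a phosphatase that activates CDK2, was at 16.8, 7.35 and 6.27 FPKM in BxPC-3 and at 3.43, 3.38 and 2.42 FPKM in BxPC-3-GR, with the first parental library far above the others (log2FC -1.34, SE 0.342, adjusted p = 0.0156). DCTPP1, a dCTP pyrophosphatase, was at 9.84, 8.97 and 15.4 and 4.08, 3.43 and 5.88 FPKM (log2FC -1.17, SE 0.238, adjusted p = 0.00649). These were the only SDE genes of the 55, both lower and without overlap. Neither was SDE without its highest parental library, with log2FC of -0.95 for CDC25A without the first BxPC-3 library (adjusted p = 0.00418) and -0.95 for DCTPP1 without the third (adjusted p = 0.0118). CDC25A was not called without the third BxPC-3-GR library (adjusted p = 0.0552). In CFPAC-1-GR 34 of the 54 tested rose and 17 fell, 19 and 5 of them SDE, with a median of 0.74, beside 44.6% and 34.9% of all genes, 20.5% and 11.7% SDE and a median of 0.13. After the correction the counts were 20 and 14, with 4 and 4 SDE and a median of 0.05, beside 29.6% and 30.6% of all genes and 4.69% and 3.97% SDE. The largest increases were CDK6, a G1 kinase (2.70, corrected 1.33), TOP2A, topoisomerase II alpha (2.38, corrected 1.17), and TOPBP1, a checkpoint scaffold (2.33, corrected 1.37). All 3 were lower in BxPC-3-GR (-0.61, -0.16 and -0.58), although the call of TOP2A was lost without the first BxPC-3 library (0.0689), the second BxPC-3 library (0.0588), the third BxPC-3 library (0.0555), the first BxPC-3-GR library (0.0870) or the second BxPC-3-GR library (0.0785), with adjusted p in parentheses. The largest decreases were the small polymerase subunits POLE4 (-1.28, corrected -1.08) and POLD4 (-1.27, corrected -0.52), and RNASEH2A, the catalytic subunit of RNase H2 (-1.20, corrected -1.07). None of these 3 was called in BxPC-3-GR (-0.28, -0.02 and -0.05).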

How the data were processed

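RNA was sequenced in 3 libraries for each parental and each resistant line. The authors deposited FPKM in 1 table for 58302 genes, made per the methods with GRCh38 and Ensembl release 91. The submitters' processing notes also list Trimmomatic 0.27, FastQC 0.10.1, TopHat2 2.0.8 and hg19. The counting program and its use of strand are not given in the sources used here, so genes with overlapping exons (22 of the 51) are uncertain. The test named in the methods needs counts, so normalized values were tested with limma 3.58.1 (R 4.3.3). All columns were used.

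Fits used log2(FPKM + 1), lmFit and eBayes without trend or block, genes whose mean reached 1 FPKM, and an interaction over 12 libraries. GC content of the longest transcript and exon length came from GENCODE release 29, which held 58039 genes, and positions are those of the table (GRCh38). The correction subtracted a spline with 5 degrees of freedom in each. Of low values, 62.0% to 72.7% were whole multiples of 1 fragment within 0.05, so counts were not recovered. Alternatives were a pseudocount of 0.1, no filter, 1 fit of 12 libraries, a replicate block, both scalings, the correction with or without that block, a restriction to protein-coding genes, a variance trend and each library left out.

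Values are given per library for subunits of the MCM, GINS, polymerase, RFC and RPA complexes that were SDE in a line or differed by over 1 between the lines, for SDE genes of the other groups and, where a group had neither, for its largest called change, 20 genes in all. PCNA, PRIM2 and CCNE2 were added after their values were seen. Of the 56 further genes, the 3 largest SDE increases and decreases per line were named. The 51 genes, the groups and the lists were chosen with earlier results of these data known. The fits were tested on simulated data. The final criterion was set on changes in genes of at least 10 FPKM, after simulations with changes in genes from 2 FPKM had missed the earlier recovery criteria. Those results were kept, and the fits were not altered. Plots were drawn with matplotlib 3.10.9.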

Additional observations from a re-analysis of the deposited data

Results flagged for a closer look

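For 22 of the 51 genes the change differed between the lines by more than 1 on the log2 scale, by limma's interaction term at an adjusted p below 0.05. Over all 12210 genes tested, 23.6% were past 1 and 14.4% past -1 in the same way. The value is the log2FC in CFPAC-1-GR minus that in BxPC-3-GR. It was positive for 19 genes: ORC6 (1.78) and CDC6 (1.48) of origin licensing, MCM6 (1.28), MCM10 (1.72) and GINS3 (1.27) of the helicase, POLA1 (1.87), PRIM1 (1.39), POLD3 (1.26) and POLE2 (1.57) of the polymerases, PCNA (1.34), RFC1 (1.95) and RFC3 (2.34) of the clamp and its loader, DNA2 (1.56), SLBP (1.06), CCNE1 (1.76), CCNE2 (1.53), DTL (1.34), CLSPN (1.58) and TIPIN (1.57). It was negative for POLD1 (-1.36), POLD2 (-1.14) and E2F1 (-1.73). Of the 22, ORC6 (1.49), RFC3 (1.27), SLBP (1.18) and CCNE1 (2.04) were past 1 also once GC content and length were corrected for. The difference of CCNE2, which was below the filter in the CFPAC-1 lines alone, was then not called (0.32, adjusted p = 0.0568). The difference of SLBP was near the size criterion as deposited (1.06). It was below 1 without the first BxPC-3 library (0.98), or without the second or the third CFPAC-1-GR library (0.95 and 0.98). Under median-of-ratios and upper-quartile scaling it was 0.72 and 0.62. In each of these settings it was still called. GC content moved with the sign: it was 36.9% to 52.9% in the 19 and 59.1% to 65.0% in the 3.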

How the results depend on the processing

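The 20 genes given per library kept their direction in the 3 comparisons under the alternatives run, except as given here. In CFPAC-1-GR, GINS3 was -0.17, -0.27 and -0.71 and RPA2 -0.27, -0.39 and -0.032 under median-of-ratios scaling, upper-quartile scaling and the correction for GC content and length, alone or with the replicate block. E2F1 in BxPC-3-GR, near 0, was 0.046 and 0.0039 under the scalings. The difference between the lines was 0.32 for CDT1 and 0.37 for TK1 with the correction, -0.0058 and -0.12 for LIG1 under the scalings and -0.094 for RPA2 under upper-quartile scaling. Without 1 library, E2F1 in BxPC-3-GR ranged from -0.064 to 0.098 and RPA2 in CFPAC-1-GR from -0.0028 to 0.041. For RPA2 this was the first CFPAC-1-GR library. The cause was not tested.

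A pseudocount of 0.1 gave 5 SDE decreases in BxPC-3-GR, beside 652 among all 11710 genes tested. It gave 11 SDE increases in CFPAC-1-GR, beside 3396 among all 12051. In CFPAC-1-GR, upper-quartile scaling gave 25 decreases, 10 of them SDE (47.9% and 22.2% of all genes). The correction left 0 SDE in either direction (4.69% of all genes higher, 3.97% lower). Correction and block together gave 12 increases, beside 3319 among all 12030 genes tested. The median there was -0.14 and -0.25 under the scalings and 0.028 with the correction, and 0.096 to 0.23 without 1 library. For the difference between the lines, upper-quartile scaling gave 22 increases (12 past 1) and 14 decreases (6 past -1), median-of-ratios scaling 13 decreases (6 past -1), and the correction 6 past 1 and 0 past -1. Its median was 0.31 and 0.20 under the scalings, 0.43 with the correction and 0.53 to 0.71 without 1 library. The share of promoters with the motif is 67.44% and 24.99% for the last 6 letters.

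Same-numbered libraries did not deviate together (correlations 0.096, -0.052 and 0.058 in the BxPC-3 lines and 0.00014, -0.14 and -0.067 in the CFPAC-1 lines). These values gave no sign of a pairing by number, but cannot show how the libraries were handled, which the sources used here do not say. With the replicate block alone, 1 replication gene was higher and 36 lower in BxPC-3-GR, beside 2984 and 3557 among all 11710 genes tested. In CFPAC-1-GR the block gave 23 and 13, beside 5279 and 4096 among all 12051. The call of DNA2 in BxPC-3-GR was then lost (adjusted p = 0.0658), and with block and correction together so were those of MCM6 and PRIM1 in CFPAC-1-GR (0.0795 and 0.0841). CCNE2, with a mean below the filter, was not tested in the CFPAC-1 lines.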
